A study of Mus musculus with 9 samples.

Results

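The genes described here are 6 genes of sphingosine-1-phosphate (S1P) signaling in the neurosensory retina: the receptors S1pr1, S1pr2, and S1pr3, the kinases Sphk1 and Sphk2, and the exporter Spns2. They were taken by gene symbol from a table of counts for 54532 genes, and all 6 were present and passed the filter on low counts. Bulk RNA-Seq had been performed on the retina of 9 wild type C57BL/6 mice at P17, and each of the 3 groups held 3 mice. Control mice (labeled Control+DMSO) were kept in room air, and whether they were injected is not stated. OIR mice (labeled Hypoxia+DMSO) were injected with vehicle at P12 and had oxygen-induced retinopathy, a model in which pups are exposed to hyperoxia and then returned to room air, so that the undersupplied retina becomes ischemic and develops neovascularization. Treated OIR mice (labeled Hypoxia+32-134D), called treated here, had the same retinopathy and were given a single intraocular injection at P12 of 32-134D, a small-molecule inhibitor of HIF-1 and HIF-2 (hypoxia-inducible transcription factors), at a dose that the labels give as 70 ng in one field and as 70 ng/μL in another. Mice are named by the numbers in their labels, with 1, 6, and 7 in the control group, 3, 5, and 6 in the OIR group, and 2, 5, and 10 in the treated group. No mouse carried a transgene or deletion according to the labels, and whole retina was sequenced rather than a sorted cell type.

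S1P is a lipid mediator that is formed when a sphingosine kinase phosphorylates sphingosine. It leaves endothelial cells through the transporter encoded by Spns2 and acts on a family of G protein-coupled receptors on the cell surface, of which S1pr1 restrains endothelial sprouting and supports the vascular barrier, while S1pr2 and S1pr3 couple to further G proteins and S1pr2 is known for its part in neovascularization of the ischemic mouse retina. S1P is removed by a lyase and by phosphatases, which lead it out of the pathway or back toward ceramide.

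In these retinas, S1pr3 was 2.48-fold higher, and Spns2 was 0.513 times the control level, in OIR retinas compared with control retinas. For both genes the OIR and control values did not overlap, as was the case in the same direction for 15.9% (higher) and 17.2% (lower) of all 17540 genes tested. S1pr2 was 2.20-fold higher on average, with overlap between the groups. S1pr1 and Sphk2 differed from control by 0.08 and 0.01 on the log2 scale. In treated retinas, Spns2 was 2.31-fold higher and Sphk1 was 0.568 times the level in vehicle-injected OIR retinas, again with no overlap, beside 3.74% (higher) and 5.39% (lower) of all genes. None of these differences passed an adjusted p of 0.05 in the edgeR fit of all 9 mice, which 0.941% of all genes passed in the first comparison and 0% in the second, and the calls for S1pr3 and Spns2 depended on the fit, as given for each gene.

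All 6 genes are annotated as protein coding. On GRCm38 (GENCODE M21), S1pr1 (ENSMUSG00000045092) lies on chromosome 3 at 115710433 to 115715072 on the minus strand, and no other gene shares its exons. S1pr2 (ENSMUSG00000043895) lies on chromosome 9 at 20962361 to 20976781 on the minus strand, also without a shared exon. S1pr3 (ENSMUSG00000067586) lies on chromosome 13 at 51408639 to 51422797 on the plus strand, and 45 of its exonic bases are shared with Gm32834 on the opposite strand, which had at most 9 counts in any mouse. Sphk1 (ENSMUSG00000061878) lies on chromosome 11 at 116530925 to 116536674 on the plus strand and shares 192 exonic bases with Gm29292, which had at most 7 counts. Spns2 (ENSMUSG00000040447) lies on the same chromosome at 72451638 to 72489904 on the minus strand, and 3.21% of its exonic bases are shared with Mybbp1a, which had 1095 to 2001 counts. Sphk2 (ENSMUSG00000057342) lies on chromosome 7 at 45709467 to 45718002 on the minus strand. It has the largest overlap of the 6 genes, with 13.0% of its exonic bases shared with Dbp (1643 to 5324 counts) and 8.97% with Rpl18 (3702 to 7823 counts), both on the opposite strand. Whether counting used strand is not given in the sources used here, so reads from these shared stretches cannot be assigned, and the Sphk2 values in particular are uncertain.

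HIF-1 and HIF-2 bind DNA at a short core, an A or a G followed by CGTG, and the inhibitor was directed at these factors. The RefSeq start regions (GRCm38.p6, 250 bases before to 50 bases after each listed start) of the genes were therefore searched for ACGTG and GCGTG on both strands. The 3 genes with the largest OIR differences are shown here from 250 bases before to 30 bases after the start, on the strand of the gene, with the matching letters in capitals. ACGTG is also contained in the longer letters CACGTG, to which other factors bind.
S1pr3, chr13:51408368-51408647, plus strand: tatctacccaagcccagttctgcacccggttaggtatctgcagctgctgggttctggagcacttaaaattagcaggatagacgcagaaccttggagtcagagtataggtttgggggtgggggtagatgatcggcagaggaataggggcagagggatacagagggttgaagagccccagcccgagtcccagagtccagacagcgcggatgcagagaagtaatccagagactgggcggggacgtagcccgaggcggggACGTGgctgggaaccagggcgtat
S1pr2, chr9:20976764-20977043, minus strand: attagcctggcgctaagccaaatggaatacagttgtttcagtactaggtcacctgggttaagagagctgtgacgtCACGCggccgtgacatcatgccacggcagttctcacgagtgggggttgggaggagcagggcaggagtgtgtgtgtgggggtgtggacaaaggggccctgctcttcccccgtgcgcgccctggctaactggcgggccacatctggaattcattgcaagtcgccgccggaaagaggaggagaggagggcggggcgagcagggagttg
Spns2, chr11:72474998-72475277, minus strand: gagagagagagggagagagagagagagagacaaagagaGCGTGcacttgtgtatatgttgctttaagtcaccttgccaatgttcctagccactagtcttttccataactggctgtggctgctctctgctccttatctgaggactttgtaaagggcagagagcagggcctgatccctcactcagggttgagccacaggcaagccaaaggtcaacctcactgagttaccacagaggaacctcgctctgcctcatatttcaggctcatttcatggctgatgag
The S1pr3 window held 1 ACGTG, at base 7 after the start. The S1pr2 window held 1 GCGTG, read on the opposite strand and hence printed as its reverse complement, at position -175. The Spns2 window held 1 GCGTG at position -212, but the RefSeq start used for it lies inside the gene, 14877 bases from the gene start of the count table. The table held 5 alternative start windows for Sphk1, all 5 with at least 1 match. Some of these windows overlap and hold the same matches, and their starts lie inside the gene, 175 to 1526 bases from its start. It held 2 windows for Sphk2, of which 1 held neither letter string. S1pr1 was not among the genes with a window. Of all 32851 windows in the RefSeq table, 19.6% held ACGTG, 32.4% held GCGTG, and 43.8% held either, so such letters are common near gene starts, and a match does not show that a factor binds there.

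The depth was 16864135 to 27213184 total counts in control retinas, 18556723 to 21071371 in OIR retinas, and 16028731 to 18560178 in treated retinas. At this depth, counting error was small for 5 of the genes, whose lowest count in any mouse was 177. For S1pr2 the lowest count was 39 in control mouse 7, with an exact Poisson 95% interval of 27.7 to 53.3 that covers counting error alone. Markers of Müller glia, the main glial cells of the retina, were abundant in all 9 libraries, with a summed level of 3084 to 5439 CPM over 6 genes, where CPM are counts after every library is scaled to the same total. Treated OIR mouse 2 stood apart, with 15.8% of its counts in crystallin genes, the structural proteins of the lens, compared with at most 0.186% in any other mouse. Its summed ganglion cell markers were also the lowest of the 9 mice, at 46.9 CPM, and where it moved a difference of the 6 genes by over 1.5 times, the value without it is given as well.

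Levels of different genes were compared per length, as counts per kilobase of transcript scaled to library size (RPKM). In control retinas, S1pr1 and S1pr3 were the most abundant of the 6 genes, at 12.2 ± 0.735 and 10.9 ± 2.67 RPKM (SD, n = 3), and their ranges overlapped. Sphk2 followed at 6.28 ± 0.133 and Spns2 at 6.02 ± 0.103 RPKM, with ranges that did not overlap (6.15 to 6.42 and 5.95 to 6.14 RPKM). Sphk1 was lower, at 3.03 ± 0.426 RPKM, and S1pr2 was the lowest, at 0.533 ± 0.234 RPKM. In OIR retinas, S1pr3 was the most abundant, at 27.2 ± 12.2 RPKM, and all 3 OIR retinas had more S1pr3 (17.2 to 40.8 RPKM) than S1pr1 (11.2 to 15.6 RPKM). Sphk2 (6.33 ± 0.705 RPKM), Sphk1 (4.22 ± 1.54), and Spns2 (3.09 ± 0.972) came next, and each overlapped its neighbor in this order. S1pr2 remained the lowest, at 1.18 ± 0.497 RPKM. In treated retinas the order was S1pr3 (18.5 ± 8.21 RPKM), S1pr1 (10.6 ± 2.05), Spns2 (7.13 ± 2.30), Sphk2 (6.79 ± 1.30), Sphk1 (2.40 ± 0.347), and S1pr2 (0.746 ± 0.420). Spns2 and Sphk2 overlapped in these mice, whereas S1pr3 and S1pr1 did not.

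**Figure D1:**
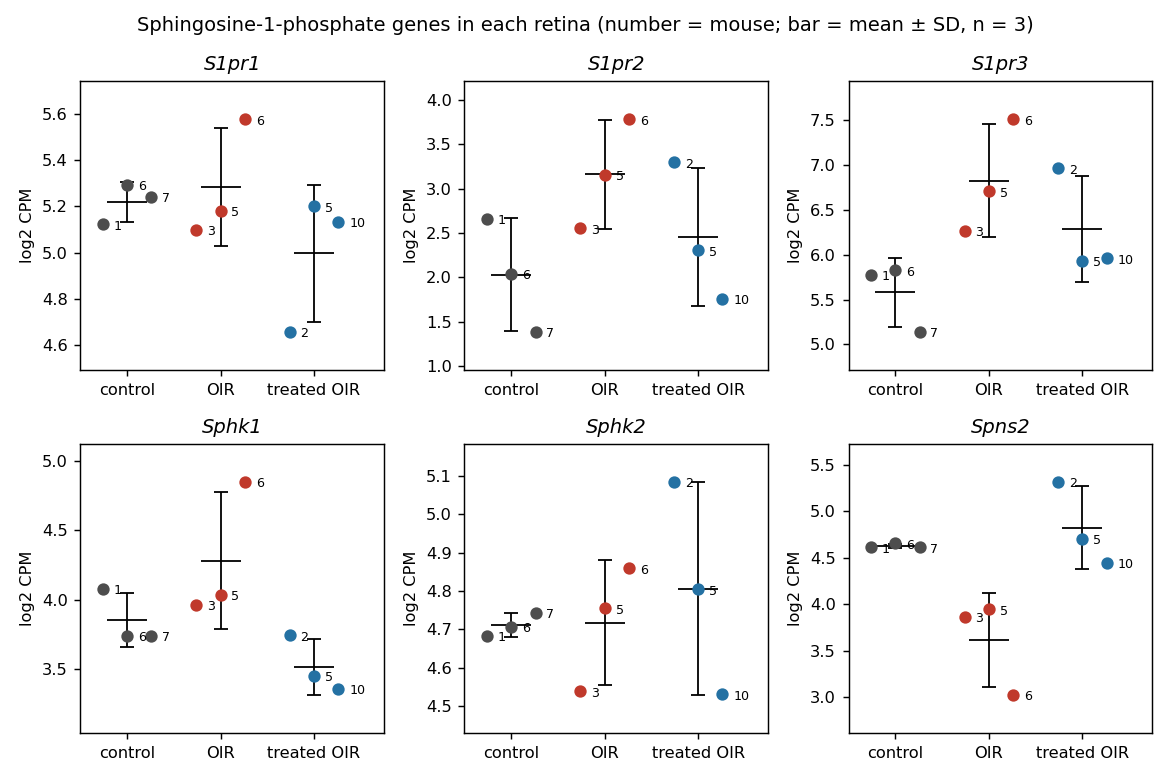
Level of each of the 6 genes in each retina, as log2 CPM (prior count 2) on the vertical axis, for control, OIR, and treated retinas. Each point is 1 mouse with its number, and the bar is the mean ± SD of 3 mice. S1pr3 lies above and Spns2 below the control points in all 3 OIR retinas, while Sphk2 overlaps in all groups.

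S1pr3 couples to several classes of G protein and is found on vascular and glial cells. Its level was 5.78, 5.83, and 5.14 log2 CPM in control retinas 1, 6, and 7, compared with 6.27, 6.71, and 7.51 in OIR retinas 3, 5, and 6, and 6.97, 5.93, and 5.96 in treated retinas 2, 5, and 10. The lowest OIR mouse was above the highest control mouse, and all 3 treated retinas were also above control, 2 of them narrowly. The difference between OIR and control retinas was 1.31 on the log2 scale (SE 0.38, 95% interval 0.45 to 2.16), with an unadjusted p of 0.00702 and an adjusted p of 0.0963 by edgeR's quasi-likelihood test with Benjamini-Hochberg adjustment over 17540 genes. The adjusted p was 0.0228 without treated OIR mouse 2, and over all alternatives it ranged from 0.00830 to 0.280. Treated OIR retinas were higher than control retinas by 0.76 (SE 0.38, interval -0.09 to 1.60, edgeR adjusted p 0.310), and by 0.33 without treated OIR mouse 2. Compared with vehicle-injected OIR retinas, the difference was -0.55 (SE 0.37, interval -1.39 to 0.29, edgeR adjusted p 0.9998), and leaving out 1 mouse at a time moved it to between -0.95 (without treated OIR mouse 2) and -0.13 (without OIR mouse 6). Since whole tissue was sequenced, fewer cells of a type and less RNA per cell cannot be told apart, here and for every gene that follows.

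S1pr2, a receptor that couples to several classes of G protein, had 178, 81, and 39 counts in control retinas 1, 6, and 7, 108, 189, and 303 in OIR retinas 3, 5, and 6, and 153, 79, and 64 in treated retinas 2, 5, and 10. On the log2 CPM scale these were 2.66, 2.04, and 1.39 in control retinas, 2.55, 3.16, and 3.78 in OIR retinas, and 3.29, 2.31, and 1.76 in treated retinas. OIR mouse 3 lay below control mouse 1, so that the groups overlapped. OIR retinas were higher than control retinas by 1.14 (SE 0.49, interval 0.04 to 2.24), with an unadjusted p of 0.0441 and an adjusted p of 0.197 (edgeR). The difference between treated OIR and control retinas was 0.47 (SE 0.49, edgeR adjusted p 0.622) and turned to -0.079 without treated OIR mouse 2. Between treated and vehicle-injected OIR retinas it was -0.67 (SE 0.48, interval -1.76 to 0.42, edgeR adjusted p 0.9998), and it was -1.18 without treated OIR mouse 2 and -0.30 without OIR mouse 6.

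S1pr1 is the receptor most closely tied to vessel stability. Its level was 5.12, 5.29, and 5.24 log2 CPM in control retinas 1, 6, and 7, 5.10, 5.18, and 5.58 in OIR retinas 3, 5, and 6, and 4.66, 5.20, and 5.13 in treated retinas 2, 5, and 10. The 3 groups overlapped, with OIR mouse 6 highest and treated OIR mouse 2 lowest. The difference between OIR and control retinas was 0.08 (SE 0.17), and its interval of -0.31 to 0.47 narrowly overlapped that of S1pr3, 0.45 to 2.16. The S1pr1 difference changed sign, to -0.080, without OIR mouse 6. Treated OIR retinas differed by -0.20 from control retinas (SE 0.17, interval -0.60 to 0.19) and by -0.29 from OIR retinas (SE 0.17, interval -0.68 to 0.11), and without treated OIR mouse 2 these were -0.046 and -0.11. Endothelial markers summed to 262 to 274 CPM over 10 genes in control retinas, 363 to 471 in OIR retinas, and 304 to 464 in treated retinas. Kdr, a VEGF receptor, was the most abundant of these genes, and without it the other 9 summed to 149 to 173 CPM in the controls, 82.5 to 246 in OIR retinas, and 96.9 to 313 in treated retinas, with overlap between all groups. The part of endothelial cells in the S1pr1 values was not tested.

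The S1pr3 to S1pr1 ratio within each retina does not depend on how libraries are scaled. The ratio of counts was 1.58, 1.45, and 0.932 in control retinas 1, 6, and 7, 2.25, 2.88, and 3.83 in OIR retinas 3, 5, and 6, and 4.97, 1.66, and 1.78 in treated retinas 2, 5, and 10. All OIR and treated OIR ratios were above the highest control ratio. On the log2 scale the mean was 0.36 ± 0.41 in control, 1.54 ± 0.38 in OIR, and 1.29 ± 0.89 in treated retinas (SD, n = 3). The difference from control was 1.18 for OIR retinas (two-sided exact permutation p = 0.1) and 0.93 for treated retinas (exact permutation p = 0.1), and 0.1 is the smallest p that 3 mice against 3 can give. Treated and vehicle-injected OIR retinas differed by -0.25 (exact permutation p = 0.7). Treated OIR mouse 2 had the highest ratio of all mice, and without it the treated difference was 0.42 from control and -0.76 from OIR retinas. Of the summed level per length of the 5 S1P receptors, S1pr3 made up 37.4% to 49.1% in the controls, 58.7% to 70.1% in OIR retinas, and 51.0% to 73.7% in treated retinas. S1pr1 made up 45.7% to 58.8%, 26.8% to 38.2%, and 21.7% to 45.0%, respectively. S1pr2 made up at most 3.21% in any mouse, and S1pr4 and S1pr5, found mainly on lymphoid and on oligodendrocyte lineage or natural killer cells, at most 1.52% and 1.47%.

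**Figure D2:**
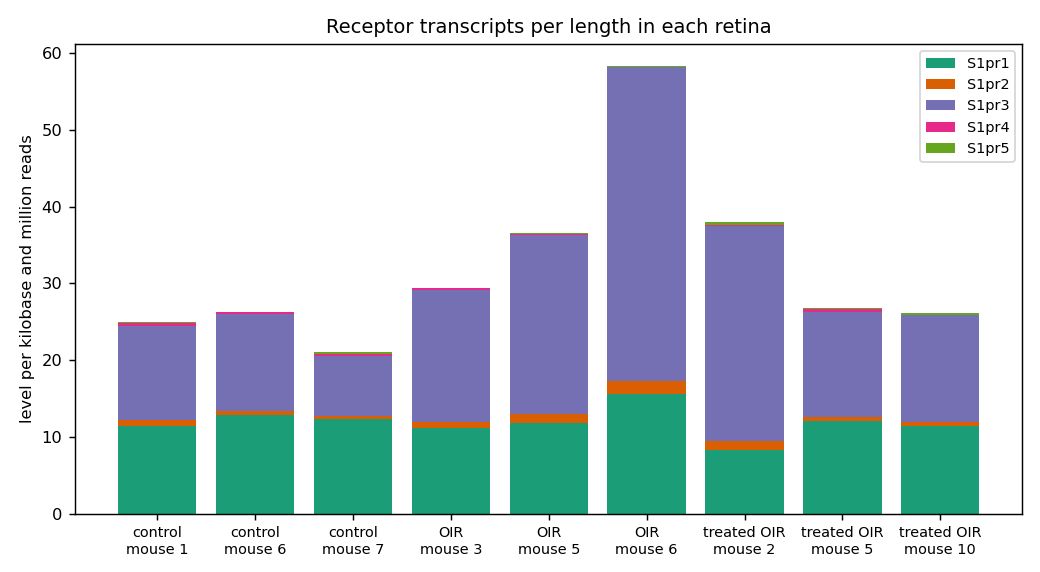
Stacked bars of the level per length (RPKM, linear axis from 0) of the 5 S1P receptors in each of the 9 retinas. The S1pr3 segment is 7.87 to 12.7 RPKM in control retinas and 17.2 to 40.8 RPKM in OIR retinas, whereas the S1pr1 segment spans 8.25 to 15.6 RPKM over all mice.

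Sphk1, the inducible cytosolic kinase, was at 4.08, 3.74, and 3.74 log2 CPM in control retinas 1, 6, and 7, at 3.96, 4.04, and 4.85 in OIR retinas 3, 5, and 6, and at 3.75, 3.45, and 3.36 in treated retinas 2, 5, and 10. OIR mouse 6 was the highest, the other two OIR retinas were within the control range, and all 3 treated retinas were below all 3 OIR retinas. OIR retinas were higher than control retinas by 0.48 (SE 0.25, interval -0.08 to 1.04, edgeR adjusted p 0.277), and by 0.14 without OIR mouse 6. Treated OIR retinas differed from OIR retinas by -0.82 (SE 0.25, interval -1.38 to -0.25), with an unadjusted p of 0.00983 and an adjusted p of 0.984 (edgeR). Without OIR mouse 6 this was -0.48, and over all alternatives the adjusted p was at least 0.228. Treated OIR and control retinas overlapped and differed by -0.34 (SE 0.25, interval -0.90 to 0.23, edgeR adjusted p 0.487), or by -0.22 without control mouse 1.

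Sphk2 encodes the kinase found largely in the nucleus and mitochondria. It was at 4.68, 4.71, and 4.74 log2 CPM in control retinas 1, 6, and 7, 4.54, 4.75, and 4.86 in OIR retinas 3, 5, and 6, and 5.08, 4.80, and 4.53 in treated retinas 2, 5, and 10. The groups overlapped, and the treated retinas spanned the lowest and the highest value. The difference between OIR and control retinas was 0.01 (SE 0.15, interval -0.33 to 0.36), and treated retinas differed by 0.11 from control retinas (interval -0.23 to 0.46) and by 0.10 from OIR retinas (interval -0.25 to 0.45). No end of these intervals was beyond 0.46 in size, but they cover only the spread of the counted reads. Reads of Dbp and Rpl18 from the shared exonic bases may be among these, so a larger Sphk2 difference is not excluded. Without treated OIR mouse 2 the 3 differences were -0.0084, -0.030, and -0.022.

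The Sphk1 to Sphk2 ratio of counts was 0.656, 0.510, and 0.498 in control retinas 1, 6, and 7, 0.670, 0.607, and 0.991 in OIR retinas 3, 5, and 6, and 0.394, 0.390, and 0.442 in treated retinas 2, 5, and 10. Every treated OIR ratio was below every control and every OIR ratio. Its log2 mean was -0.86 ± 0.22 in control, -0.44 ± 0.37 in OIR, and -1.29 ± 0.10 in treated retinas (SD, n = 3). Treated OIR retinas differed by -0.85 from OIR retinas (two-sided exact permutation p = 0.1) and by -0.43 from control retinas (exact permutation p = 0.1), again the smallest p possible. OIR and control retinas differed by 0.42 (exact permutation p = 0.2), and by 0.21 without OIR mouse 6. Treated OIR mouse 2 did not stand apart in this ratio. The exonic bases that Sphk2 shares with Dbp and Rpl18 make the ratio uncertain as well.

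Spns2, the exporter, had the smallest spread of the 6 genes among control retinas, at 4.61, 4.65, and 4.61 log2 CPM in mice 1, 6, and 7. It was at 3.87, 3.94, and 3.03 in OIR retinas 3, 5, and 6, all below control. It was at 5.31, 4.70, and 4.45 in treated retinas 2, 5, and 10, all above the OIR retinas and on both sides of the control retinas. OIR retinas differed from control retinas by -0.96 (SE 0.28, interval -1.59 to -0.34), with an unadjusted p of 0.00679 and an adjusted p of 0.0954 (edgeR). The adjusted p was 0.0196 without treated OIR mouse 2 and ranged from 0.00078 to 0.244 over all alternatives. Treated OIR retinas were higher than OIR retinas by 1.21 (SE 0.28, interval 0.58 to 1.83), and Spns2 ranked 36 of 17540 genes by unadjusted p (0.00183) in that comparison, with an adjusted p of 0.862 (edgeR). With treated OIR mouse 2 left out, the difference was 0.95 and its adjusted p 0.196, and with OIR mouse 6, the lowest, left out as well it was 0.68. DESeq2 called Spns2 in this comparison on all 9 mice (adjusted p 0.0226). Treated OIR and control retinas differed by 0.24 (SE 0.27, interval -0.37 to 0.86), which turned to -0.039 without treated OIR mouse 2.

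**Figure D3:**
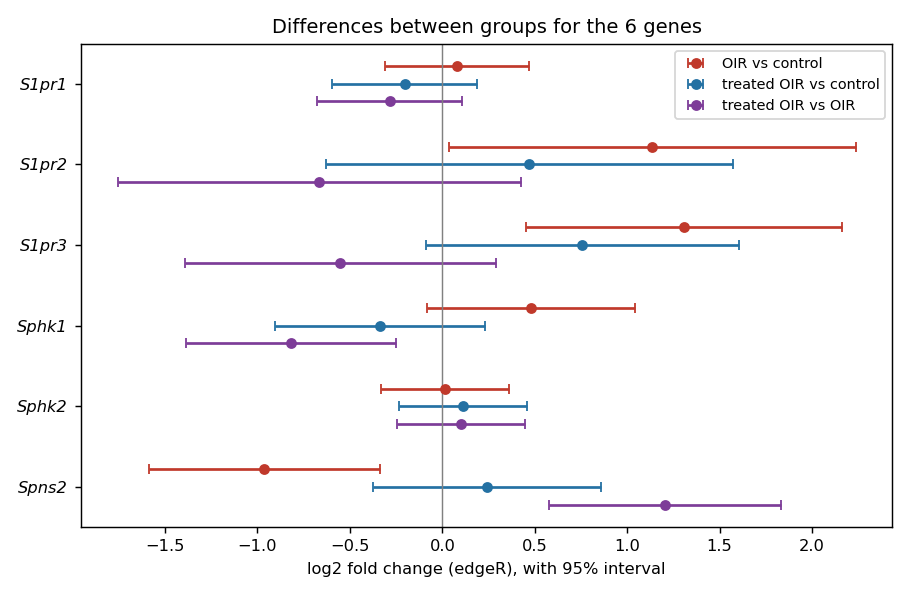
Differences between groups for the 6 genes, as log2 fold changes from edgeR with 95% intervals (horizontal axis), for OIR compared with control, treated OIR compared with control, and treated OIR compared with OIR retinas. The intervals that exclude 0 are those of S1pr2, S1pr3, and Spns2 in the first comparison and of Sphk1 and Spns2 in the last, before adjustment for the genes tested.

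Counted over the 6 genes, none passed an adjusted p of 0.05 in OIR compared with control retinas by edgeR, where 0.941% of all genes tested passed, while 3 had an unadjusted p under 0.05, a level reached by 23.8% of all genes. The 2 that were higher, S1pr2 and S1pr3, stand beside 11.1% of all genes, and the 1 that was lower, Spns2, beside 12.7%. Groups without overlap were seen for S1pr3 (higher) and Spns2 (lower), compared with 15.9% and 17.2% of all genes. DESeq2 on all 9 mice, edgeR on the 2 groups, and limma-voom each called S1pr3 and Spns2, and these fits called 11.5%, 10.3%, and 13.1% of all genes. DESeq2 on the 2 groups called S1pr2 as well, and 15.4% of all genes. The median log2 fold change of the 6 genes was 0.28, and that of all genes 0.034. In treated OIR compared with control retinas, 0 of the 6 genes passed by edgeR (0.0228% of all genes), 0 had an unadjusted p under 0.05 (18.6% of all genes), and only S1pr3 was without overlap, as were 12.8% of all genes in that direction. DESeq2 on all 9 mice, DESeq2 on the 2 groups, and limma-voom likewise called 0 of the 6 there, and 4.19%, 1.56%, and 5.28% of all genes. In treated OIR compared with OIR retinas, 0 of the 6 genes and 0% of all genes passed by edgeR. An unadjusted p under 0.05 was reached by Spns2 (higher, 2.39% of all genes) and Sphk1 (lower, 2.3% of all genes), and both were without overlap between the groups, compared with 3.74% and 5.39% of all genes. In the last comparison, DESeq2 called 1 of the 6, Spns2, both on all 9 mice (0.217% of all genes) and on the 2 groups (0.474%), and limma-voom called 0 (0.0057%). The 3 comparisons share their control or OIR retinas and are not independent of each other.

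Marker totals of other cell types also differed between mice, in part along with these genes and in part not. Astrocyte markers (4 genes, Gfap the most abundant) summed to 256, 208, and 97.9 CPM in control retinas 1, 6, and 7, 308, 390, and 789 in OIR retinas 3, 5, and 6, and 474, 236, and 156 in treated retinas 2, 5, and 10, and all 4 genes were detected in every mouse. S1pr2 followed nearly the same order over the 9 mice, with control mouse 1 and OIR mouse 3 exchanged, and S1pr3 had the same 4 mice at the top and control mouse 7 at the bottom. The order of this total was that of Gfap alone, at 58.2 to 703 CPM, and the other 3 genes did not share it. They summed to 39.2 to 51.1 CPM in the controls, 74.0 to 85.9 in OIR retinas, and 52.5 to 76.2 in treated retinas, and Pax2 was at 1.21 CPM in treated OIR mouse 2, within the control range of 1.10 to 1.29. Ganglion cell markers (6 genes) summed to 836, 874, and 1183 CPM in control retinas, 394, 247, and 96.8 in OIR retinas, and 46.9, 648, and 691 in treated retinas. Spns2 was low in the 3 OIR retinas, where the ganglion cell total was below that of control, but treated OIR mouse 2 had the highest Spns2 of all mice with the lowest ganglion cell total. Red blood cell markers (5 genes) summed to 74.6, 133, and 103 CPM in control retinas, 41.7, 58.1, and 9.45 in OIR retinas, and 169, 122, and 53.8 in treated retinas. As for Spns2, treated OIR mouse 2 had the highest and OIR mouse 6 the lowest total of the 9 mice. Without Hbb-bs, the most abundant, control mouse 6 was the highest at 77.7 CPM, and treated OIR mouse 2 was at 77.1. All 5 genes were without overlap lower in OIR than in control retinas, beside 17.2% of all genes. Microglia and macrophage markers (8 genes) summed to 83.6 to 380 CPM in the controls, 181 to 388 in OIR retinas, and 95.6 to 129 in treated retinas, so that treated retinas were below all OIR retinas, as they were for Sphk1. Pericyte markers (6 genes) summed to 198, 186, and 197 CPM in control retinas, 297, 186, and 92.9 in OIR retinas, and 106, 375, and 436 in treated retinas. This total was lowest in OIR mouse 6 and treated OIR mouse 2, the mice with the most S1pr3. Without Rgs5, the most abundant, the other 5 genes summed to 54.5 and 58.6 CPM in these mice. Control mice 7 and 6 were similar, at 56.8 and 58.2 CPM, so the rest of the list did not set treated OIR mouse 2 apart. Müller glia markers (6 genes) summed to 3724 to 5117 CPM in the controls and 4885 to 5439 in OIR retinas. Treated retinas, at 3084 to 4727 CPM, were below all OIR retinas. Without Glul, the most abundant, the other 5 summed to 1634 to 2201, 2131 to 2834, and 1863 to 2143 CPM, respectively, with overlap. Of the 6 genes, 1 was without overlap higher in OIR than in control retinas and 0 lower, beside 15.9% and 17.2% of all genes. Smooth muscle, rod, and pigment epithelium totals overlapped between all groups. Lymphocyte markers (5 genes) were near 0, with a summed level of at most 0.82 CPM. The part of these cell types in the differences of S1pr2, S1pr3, Sphk1, and Spns2 was not tested.

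**Figure D4:**
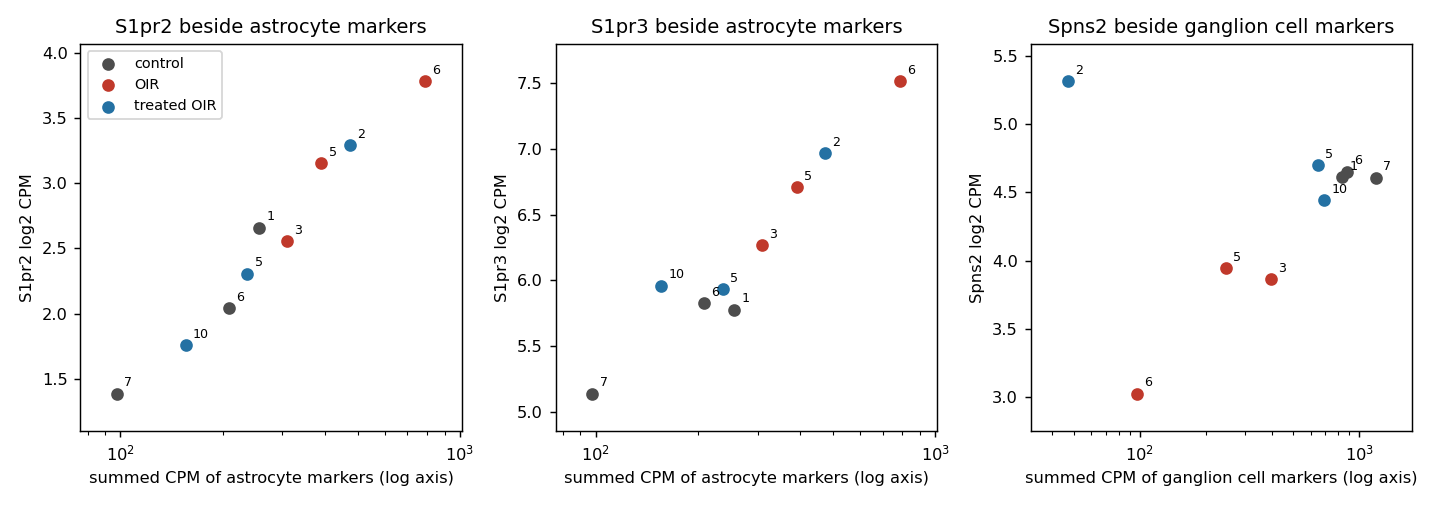
Log2 CPM of S1pr2 and S1pr3 beside the summed CPM of 4 astrocyte markers, and of Spns2 beside the summed CPM of 6 ganglion cell markers (log horizontal axes). Each point is 1 mouse with its number, colored by group, and treated OIR mouse 2 lies at the upper left of the Spns2 panel, at 46.9 CPM of ganglion cell markers.

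Of the other genes of S1P and ceramide metabolism, a list of 27, 24 could be tested, while Apom (the carrier of S1P in plasma), Acer1, and Sptlc3 were below the filter. None was called in any of the 3 comparisons by edgeR on all 9 mice, while DESeq2 and limma-voom called 2 or 3 in OIR compared with control retinas, where these fits called 11.5% to 15.4% of all genes. At an unadjusted p under 0.05, OIR retinas had 1 higher and 3 lower than control, treated retinas had 2 higher and 2 lower than control, and treated retinas had 1 higher and 0 lower than OIR retinas. Beside these counts stand 23.8% and 18.6% of all genes in the comparisons with control, and 2.39% (higher) and 2.3% (lower) in the last. Their median log2 fold changes were 0.0070, 0.077, and 0.031.

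Sgpp2, an S1P phosphatase, was at 4.77, 5.20, and 5.18 log2 CPM in control retinas 1, 6, and 7, 4.29, 3.97, and 3.99 in OIR retinas 3, 5, and 6, and 3.62, 4.29, and 4.59 in treated retinas 2, 5, and 10. All OIR retinas were below all control retinas, as was the case for 17.2% of all genes. The treated retinas were also below the controls. The share of all genes in that direction was not counted, and in the opposite direction 12.8% of all genes did not overlap. Sgpp2 was named for its small p-value. The difference from control was -0.97 (SE 0.24, edgeR adjusted p 0.0716) in OIR and -0.84 (SE 0.24, edgeR adjusted p 0.159) in treated retinas. Cers5, a ceramide synthase, was at 5.91 to 6.05 log2 CPM in the controls, 5.50 to 5.59 in OIR retinas, and 5.30 to 5.74 in treated retinas, and differed from control by -0.42 (SE 0.12, edgeR adjusted p 0.0938) and -0.39 (SE 0.12, edgeR adjusted p 0.170). Kdsr, a reductase of early ceramide synthesis, was higher in OIR than in control retinas by 0.34 (SE 0.10, edgeR adjusted p 0.1005). Its groups did not overlap, as was the case in that direction for 15.9% of all genes. Cers6 was higher in treated OIR than in control retinas by 0.33 (SE 0.14, edgeR adjusted p 0.256). Between treated and vehicle-injected OIR retinas, S1pr5 differed by 2.03 (SE 0.84, edgeR adjusted p 0.9998), but on 2 to 6 counts in OIR retinas and 6 to 16 in treated retinas. Acer3, an alkaline ceramidase, differed by 0.30 (SE 0.19), and Sgpl1, the S1P lyase, by -0.45 (SE 0.29), both with an edgeR adjusted p of 0.9998. S1pr4 had 7 to 26 counts in the controls, 1 to 7 in OIR retinas, and 2 to 12 in treated retinas. Mfsd2b, the S1P exporter of red blood cells and platelets, had at least 73 counts in every mouse, and its groups overlapped.

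**Figure D5:**
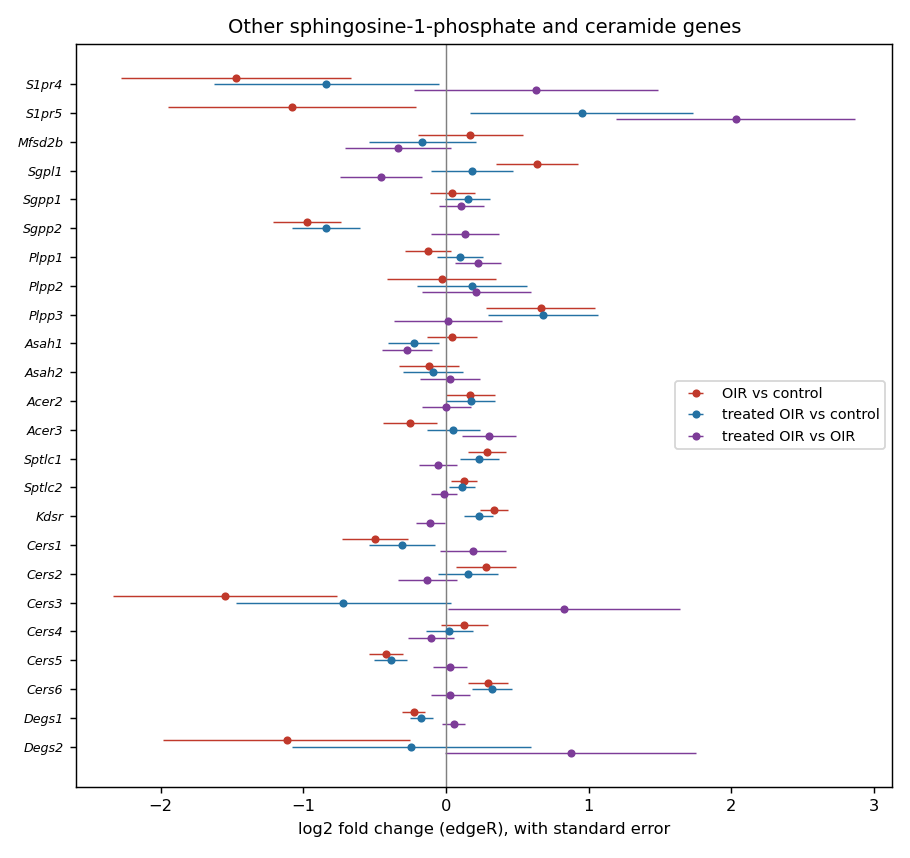
Log2 fold changes (edgeR) with standard errors for the 24 other tested genes of S1P and ceramide metabolism in the 3 comparisons. Sgpp2 and Cers5 lie below 0 in both comparisons with control, and the widest bars belong to genes with few counts such as S1pr5.

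Genes whose levels followed each of the 6 most closely were found by the root-mean-square difference of log2 CPM, after centering on each gene's mean over the 9 mice, among 13977 genes with a mean of at least 1. For S1pr3 these were Sulf1, Zcchc24, and Hkdc1, with differences of 0.16, 0.17, and 0.18, compared with a median of 0.70 over all genes. For S1pr2 they were Tnfrsf1a, Rab20, and Pdlim4 (0.14 to 0.18, median 0.75). Spns2 had the least close neighbors, Matk, Dpf1, and Pcp4l1 (0.22 to 0.29, median 0.67). Sphk1 was followed by Creg1, Prdx6, and Pmepa1 (0.12 to 0.15, median 0.47). S1pr1 (Ttyh3, Frzb, and Shisa9, 0.091 to 0.098) and Sphk2 (U2af1 and Aph1a, 0.064 and 0.066) had closer neighbors. But these 2 genes themselves varied little, by 0.23 and 0.16 about their own mean. That variation was 0.68 for S1pr3, 0.73 for S1pr2, 0.62 for Spns2, and 0.41 for Sphk1. The neighbors were picked as the closest in these same mice, so they lie below the median by choice.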

How the data were processed

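Total RNA from 9 mouse retinas was sequenced with standard Illumina libraries. The authors deposited 1 table of whole-number, unnormalized gene counts that also lists each gene's length. The submitters' processing notes name CASAVA and HISAT; the genome build, annotation, counting tool, and strand setting are not given in the sources used here. Of 54495 identifiers found in GENCODE M21, 53585 have the same position there. Groups came from the sample labels. Differently numbered samples were taken as separate mice, which the labels do not state, but the study reports 3 mice per group for its RNA-Seq. The p-values measure the spread between these samples. No 2 of the 36 library pairs were identical.

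Counts were fitted with edgeR 4.0.16 (R 4.3.3) on all 9 mice, with TMM scaling, its filter by group (17540 genes), the quasi-likelihood test, and Benjamini-Hochberg adjustment, and a gene was called at an adjusted p under 0.05. The study's RNA-Seq test is not given in the text read here. Log2 CPM used a prior count of 2, and RPKM the scaled totals and deposited lengths. Ratios of counts, with 0.5 added to each, were compared on the log2 scale by two-sided exact permutation tests.

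Alternatives were DESeq2 1.42.0, limma 3.58.1 (voom with quality weights), edgeR on the 2 groups compared, other scalings and filters, a robust fit, leaving out crystallin genes, and leaving out each mouse. Fits were tested on simulated data. Named genes were the 6 genes, the 3 other pathway genes with the smallest unadjusted p in each comparison, and the 3 closest genes to each of the 6. Of these, 1 gene is not reported here. S1pr4, Mfsd2b, and Apom were added for their roles after values were seen. The genes and lists were chosen with earlier results of these data known.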

Additional observations from a re-analysis of the deposited data

How the results depend on the processing

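With 3 mice a group, adjusted p-values depended on the fit. For genes with few counts, such as S1pr2, S1pr4, and S1pr5, counting error adds to the spread among mice. OIR compared with control mice had 165 genes called (76 higher, 89 lower) by edgeR on all 9 mice, 37 (28 higher, 9 lower) with scaling by total counts alone, 1801 and 2564 by DESeq2 on all 9 mice and on the 2 groups, 1771 by edgeR on the 2 groups, 2305 by limma-voom, and 0 to 2272 with 1 mouse left out, the most without treated OIR mouse 2. The 532 genes without a filter, 376 with 10 counts in every mouse, and 1448 without both OIR mouse 6 and treated OIR mouse 2 complete the settings that moved this count by over 1.5 times. Treated OIR compared with control mice had 4 genes called, and 0 to 926 over the alternatives. Treated OIR compared with OIR mice had 0, and at most 79 (DESeq2 on the 2 groups).

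Of the 6 S1P genes, OIR compared with control mice had 0 called in the fit of all 9 mice, 2 (S1pr3 and Spns2) by DESeq2 on all 9 mice, 3 (with S1pr2) by DESeq2 on the 2 groups, 2 by edgeR on the 2 groups, and 2 by limma-voom, fits that called 11.5%, 15.4%, 10.3%, and 13.1% of all genes, respectively. Leaving out 1 mouse gave 0 to 2, with 2 without treated OIR mouse 2, where 12.5% of all genes were called. Leaving out both OIR mouse 6 and treated OIR mouse 2, a setting chosen after seeing the data, also gave 2, beside 8.09%. In treated OIR compared with OIR mice, DESeq2 on all 9 mice and on the 2 groups called 1, Spns2 (0.217% and 0.474% of all genes). There limma-voom and every edgeR setting called 0 of the 6. Of the other pathway genes, DESeq2 on all 9 mice called 2 in OIR compared with control mice, and DESeq2 on the 2 groups called 3. There edgeR on the 2 groups called 2 and limma-voom 3, beside the same 11.5%, 15.4%, 10.3%, and 13.1% of all genes. Without a filter 1 was called (1.75% of all genes), and without both mice 2 (8.09%). With 1 mouse left out 0 to 3 were called, the most without treated OIR mouse 2 (12.5%). Treated OIR compared with control mice had 1 called by DESeq2 on all 9 mice and 1 by limma-voom, beside 4.19% and 5.28% of all genes. The cause was not tested.

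Some differences changed sign, and none of these was called. For OIR compared with control mice, S1pr1 ranged from -0.080 to 0.18 with 1 mouse left out and was -0.076 without both mice, and Sphk2 ranged from -0.060 to 0.10, was -0.0096 without crystallin genes, -0.0086 by edgeR on the 2 groups, and -0.057 without both mice. For treated OIR compared with control mice, S1pr2 ranged from -0.079 to 0.85 and was -0.077 without both mice, Sphk2 from -0.030 to 0.24 and was -0.032, and Spns2 from -0.039 to 0.42 and was -0.041. For treated OIR compared with OIR mice, S1pr1 was 0.028 without both mice, Sphk2 was -0.016 by total counts alone and -0.022 to 0.23 with 1 mouse left out, and the log2 S1pr3 to S1pr1 ratio ranged from -0.76 to 0.026, the last without treated OIR mouse 5. The other differences of the 6 genes and of the ratios kept their direction. No paired analysis was possible because the mouse numbers in the labels are shared by at most 1 mouse between any 2 groups.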
